A study of Mus musculus with 6 samples.

Results

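Interferon-stimulated genes are the antiviral and antibacterial genes that cells switch on when interferon binds its receptors, and 43 of them were followed here by name in mouse intestinal epithelial cells. The values used were those of the 39 that had a probe set assigned to that gene alone on the array, with the probe set of highest mean over the 6 arrays standing for each gene. Of these, 37 were above 5 on the log2 scale on at least 3 arrays and were tested, among 8893 genes tested in all. Mx2 and Isg20 stayed below that level on every array and were not tested, at 2.53 to 2.82 and 1.67 to 2.46. Isg15, Gbp4 and Tgtp1 are measured only by probe sets that are assigned to several genes, and Ifi44 by none in the annotation used, so these 4 are not analysed here.

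Total RNA was hybridised to Affymetrix chips from 3 control mice and 3 GGTase-Iβ deficient mice, 1 array per mouse, on a mixed 129/SV and C57BL/6 background. Both groups carried the floxed Pggt-Iβ gene, the source of 1 subunit of GGTase-I, an enzyme that attaches a lipid to small GTPases and other proteins. The controls were VillincreERT2 negative and the deficient mice VillincreERT2 positive, so a recombinase driven by the villin promoter of intestinal epithelium and switched on by tamoxifen was present in the deficient group alone. All mice were given 1 mg tamoxifen on 3 days in a row, and cells were taken on day 6 counted from the first injection. Any effect of the recombinase itself cannot be told apart from that of the deletion. The sources used here do not give the age and sex of the mice or the segment of intestine. The comparison asks how the expression of these genes in the epithelium differed after loss of the enzyme.

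Type I and type III interferons signal through JAK kinases to a transcription factor complex that holds IRF9 and binds the interferon-stimulated response element in promoters. Interferon gamma acts on promoters through the gamma-activated sequence, and it is a strong inducer of the guanylate-binding proteins and the immunity-related GTPases. Intestinal epithelium responds to type III interferon in particular, and it keeps a basal level of this programme that depends on the microbiota.

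The response element was common in the promoters of these genes. It was searched as GAAA, any 2 bases and GAAA again, and the gamma-activated sequence as TTCNNNGAA, on both strands of the 250 bases before each annotated start in the RefSeq promoter table of build GRCm38.p6. Matches may overlap each other. Of the 37 tested members 29 were in that table. In 14 of these the window held the response element, which is 48.3%, against 3.46% of all 27025 genes of the table and 3.3% of the 7293 tested genes in it. The gamma-activated sequence was in 8 of the 29, or 27.6%, against 8.13% of all genes. The examples printed to show the element are the 3 tested members with the smallest limma p among those that held the response element, read in the direction of the gene with the match in capitals.
Gbp2 (chr3:142620413-142620662, plus strand): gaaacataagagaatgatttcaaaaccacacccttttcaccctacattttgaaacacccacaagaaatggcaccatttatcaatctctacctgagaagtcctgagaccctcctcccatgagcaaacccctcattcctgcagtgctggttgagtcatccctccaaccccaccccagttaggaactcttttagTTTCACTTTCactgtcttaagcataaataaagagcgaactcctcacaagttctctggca
Rsad2 (chr12:26456453-26456702, minus strand): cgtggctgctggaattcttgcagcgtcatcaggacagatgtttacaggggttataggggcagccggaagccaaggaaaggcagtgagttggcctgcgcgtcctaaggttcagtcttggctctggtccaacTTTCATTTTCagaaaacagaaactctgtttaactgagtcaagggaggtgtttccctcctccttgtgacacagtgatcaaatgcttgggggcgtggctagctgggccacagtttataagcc
Gbp3 (chr3:142559794-142560043, plus strand): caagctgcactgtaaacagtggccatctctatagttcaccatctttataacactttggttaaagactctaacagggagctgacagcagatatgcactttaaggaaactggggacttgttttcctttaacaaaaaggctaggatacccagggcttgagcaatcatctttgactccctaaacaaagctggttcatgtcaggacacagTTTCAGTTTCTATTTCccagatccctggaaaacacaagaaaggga
In all 3 the match lies on the opposite strand to the gene. It begins 59 bases before the start in Gbp2 and 120 bases before it in Rsad2, while Gbp3 holds 2 overlapping matches, the farther one beginning 45 bases before its start. The core GAAACTGAAA was the commonest form, found in 9 of the 14 members: Stat2, Oas1a, Ifit1, Ifit3, Bst2, Gbp3, Gbp7, Igtp and Irgm2. Among tested members in the table, all 6 guanylate-binding proteins and immunity-related GTPases held the element, as did 2 of 3 IFIT genes and 2 of 5 genes of the OAS and PKR group. A match of letters is a description of the sequence only. The members that held the element had a median log2 change of -0.06 (14 genes) and those that did not of -0.09 (15 genes).

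The deleted gene itself, Pggt1b, read 9.30, 9.55 and 9.33 in controls 1, 2 and 3 and 9.75, 8.88 and 8.83 in deficient mice 1, 2 and 3, all on the log2 scale. Deficient 1 lay above every control and deficient mice 2 and 3 below them. The change, deficient minus control, was -0.24 ± 0.27 (SE), and its adjusted p by limma was 0.678. The array has 4 probe sets for this gene, and these values are from the one with the highest mean. The others are not given here. Whether the probe set used lies within the deleted part is unknown here, so it does not check the labels.

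The interferon-stimulated genes did not separate the deficient mice from the controls. With limma and Benjamini-Hochberg adjustment over all genes, 0 of the 37 passed a threshold of 0.05, against 2.09% of all genes tested (186 genes). Of all genes 1.98% passed as lower and 0.112% as higher. At an unadjusted p under 0.05 there was 1 lower gene, Ifitm1, and 1 higher gene, Oasl1, where 11.3% of all genes were lower and 5.6% higher by that rule. By mean, 20 members were lower and 17 higher in the deficient mice, with 54.6% of all genes lower. The median log2 change, deficient minus control, was -0.01 over the members and -0.04 over all genes, and single changes ran from -0.91 to 0.96. Standard errors lay between 0.19 and 0.71 with a median of 0.40, against 0.22 for all genes. The 95% interval of Usp18, the least precise member, was -1.20 to 2.18. A p that misses the threshold does not show that these genes did not differ.

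**Figure D1:**
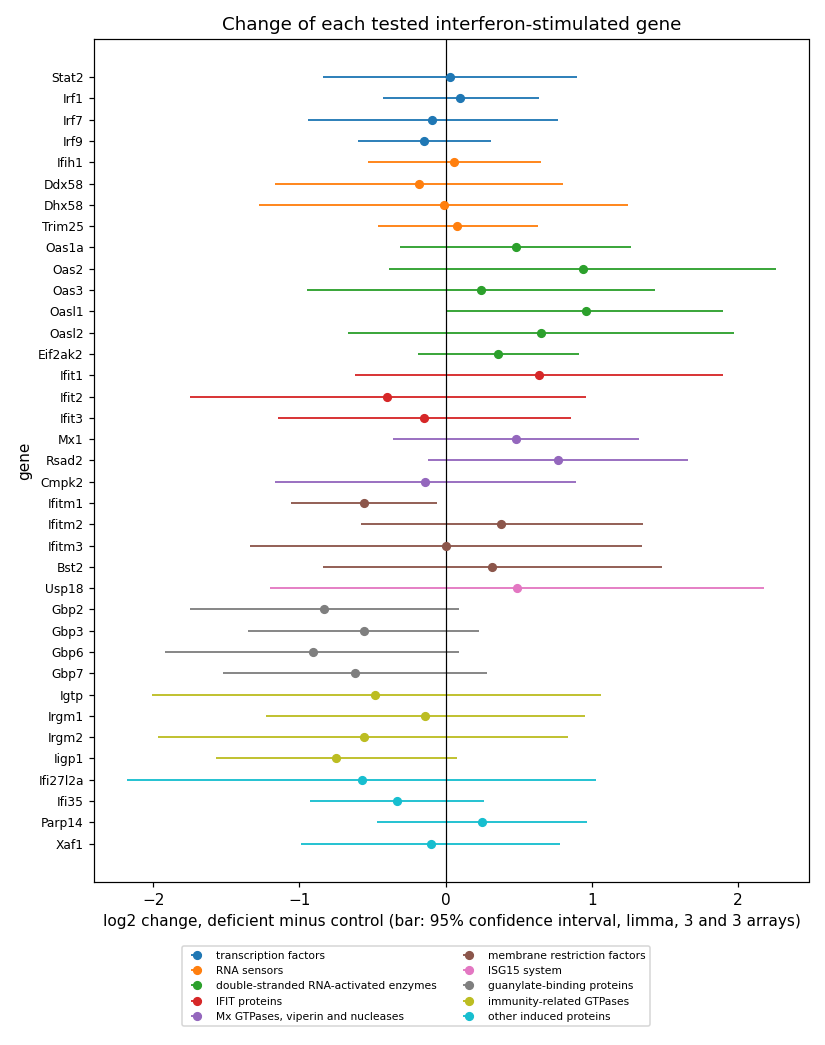
Log2 change of each of the 37 tested genes, deficient minus control (horizontal axis), with its 95% confidence interval from limma over 3 and 3 arrays, coloured by the role of the gene. The intervals of Oasl1 and Ifitm1 alone lie on one side of 0, the 6 genes of the OAS and PKR group all lie right of 0 and the 8 guanylate-binding proteins and immunity-related GTPases all lie left of it.

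For most members the mice of the control group differed from each other by more than the groups differed, and 1 control stood out. Control 3 had the highest value of all 6 arrays for 24 of the 37 members, where the same array was highest for 12% of all genes tested. Deficient mice 1 and 2 were each highest for 4 members, against 22.1% and 17.8% of all genes. No member had its lowest value in control 3. Control 1 was lowest for 11 members, control 2 for 10, deficient 1 for 9 and deficient 2 for 6, against 9.7%, 25.7%, 26.4% and 18.2% of all genes. Relative to each gene's control mean, the median member stood at -0.39, -0.40 and 0.70 in controls 1, 2 and 3 and at -0.24, 0.26 and 0.11 in deficient mice 1, 2 and 3. The medians over all genes lay between -0.05 and 0.05 on every array. The group medians overlapped, since controls 1 and 2 lay below and control 3 above all deficient mice.

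The spread among controls was wide for this family. The range over the 3 controls had a median of 1.25 on the log2 scale, against 0.45 for all genes, and over the 3 deficient mice it was 0.88 against 0.49. The SD was larger among controls than among deficient mice for 31 of 37 members, or 83.8%, against 46.8% of all genes. The difference between group means was smaller than the range among controls for 36 of 37 members (70% of all genes), the exception being Gbp2. Control 3 was the highest control for 30 members (25.6% of all genes). It exceeded the mean of controls 1 and 2 in 35 members, by a median of 1.05, and by over 1 in 23. Over all genes that margin was exceeded by 122, or 1.37%, so that members made up 18.9% of those genes. Leading members were Ifi27l2a at 2.39, Usp18 at 2.26, Ifit2 at 2.12 and Ifit1 at 1.96, while Ifitm1 and Gbp2 were lower in control 3, at -0.51 and -0.12. This contrast was picked after the values were seen and has no test, since it sets 1 mouse against 2.

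**Figure D2:**
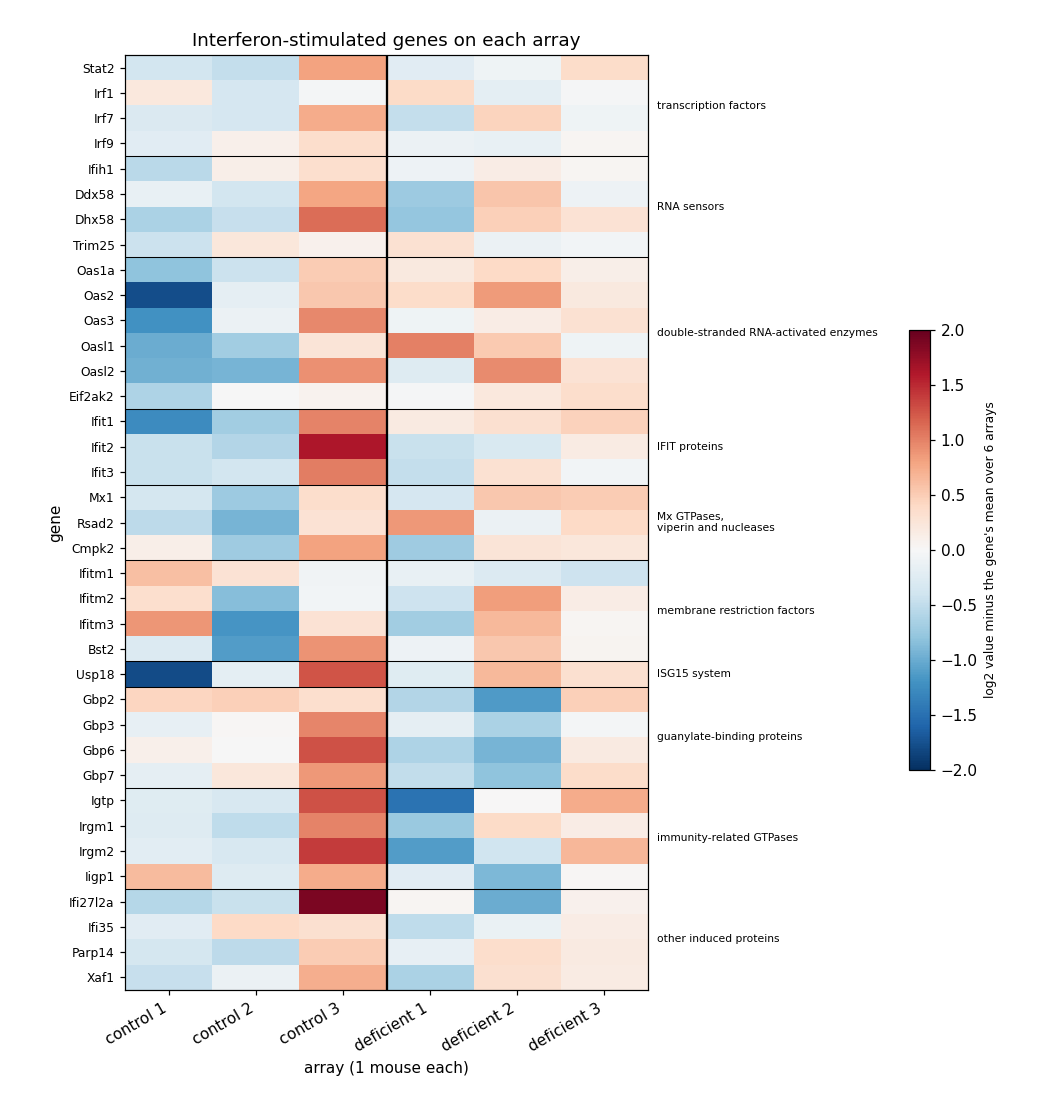
Each of the 37 genes (rows, grouped by role) on each of the 6 arrays (columns, controls left of the line), coloured by the log2 value minus the gene's mean over 6 arrays, from -2 to 2. The column of control 3 is red for most genes, controls 1 and 2 are mostly blue, and the deficient columns differ between the OAS and PKR group and the GTPase groups.

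Leaving out an array moved the family as a whole. Without control 3, 28 of the 37 members had higher means in the deficient mice, with a median log2 change of 0.26. Then 7 were higher at an unadjusted p under 0.05, or 18.9%, against 3.92% of all genes: Oas1a, Oas2, Oasl1, Oasl2, Ifit1, Rsad2 and Bst2. Of these Ifit1 came nearest to the threshold, with a change of 1.30 ± 0.24 (SE) and an adjusted p of 0.0968 by limma. In that fit Ifitm1 alone was lower at an unadjusted p under 0.05, or 2.7% of members against 9.07% of all genes. Control 3 had the highest value for most members, so leaving it out raises the changes of those members. Without deficient 1, 24 were higher, with a median of 0.16. The other 4 fits gave lower medians than the fit to all arrays: -0.29 without control 1 (24 of 37 lower), -0.20 without control 2 (23 lower), -0.22 without deficient 2 (20 lower) and -0.14 without deficient 3 (21 lower). At an unadjusted p under 0.05, 4 members were lower and 1 higher without deficient 3, against 12.2% and 6.48% of all genes. By that rule 0 were lower and 0 higher without control 1, and 2 and 0 without control 2. The counts were 1 and 0 without deficient 1, and 0 and 1 without deficient 2. In these 4 fits 8.31% to 10% of all genes were lower and 3.13% to 7.53% higher. None of the 6 fits that left out 1 mouse called a member, and the lowest limma adjusted p over those fits was 0.0508, for Gbp2 without deficient 3.

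The cells were epithelial by their markers, but other cells were present and differed between groups. All 10 epithelial markers, among them Epcam, Cdh1 and Vil1, lay above 5 on every array, and their mean level was 13.89 to 14.02 in controls and 14.08 to 14.38 in deficient mice. Of 16 measured T cell and intraepithelial lymphocyte markers 13 were tested, and 11 of these fell in the deficient mice by limma, with adjusted p under 0.05. By that rule 1.98% of all genes were lower. The mean level over all 16 measured T cell markers was 8.34 to 8.47 in controls and 5.05 to 6.26 in deficient mice. Among them Cd247, Cd8b1 and Cd2 lay below 5 on every array. Of 13 measured myeloid markers 9 were tested and 4 of these fell by the same rule. Mean levels over all 13 were 6.45 to 7.12 in controls and 5.02 to 5.91 in deficient mice, with Itgam, Cd68 and C1qc below 5 throughout. B and plasma cell markers averaged 4.35 to 4.61 and 3.67 to 4.05, with Cd79a, Cd79b and Mzb1 below 5 throughout and 0 of 1 tested called. Stromal and endothelial markers averaged 6.22 to 6.84 and 5.53 to 6.12, with Col1a1, Pecam1 and Cdh5 below 5 throughout and 0 of 5 tested called. Fewer such cells and less RNA per cell cannot be told apart in these samples, and the part of these cells in the values below was not tested. The mean level of the T cell markers was 8.41 in control 3, between controls 1 and 2.

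Among the transcription factors of the pathway the means of the groups were close. Irf1, an early factor that interferon gamma induces, read 10.76, 10.21 and 10.51 in controls 1, 2 and 3 and 10.92, 10.35 and 10.52 in deficient mice 1, 2 and 3, in that order, as for all values below. Its change of 0.10 had a 95% interval of -0.43 to 0.64, and control 3 lay in the middle of the controls, unlike for most members. Irf7, the factor that amplifies type I interferon production, read 8.99, 8.94 and 10.01 in controls and 8.79, 9.72 and 9.18 in deficient mice. Control 3 and deficient 2 were the high arrays, and the groups overlapped, with a change of -0.09 ± 0.36 (SE). Irf9, a DNA-binding subunit of the complex that binds the response element, read 8.66, 8.98 and 9.23 in controls and 8.77, 8.73 and 8.92 in deficient mice, with a change of -0.15 and a 95% interval of -0.60 to 0.31. Stat2, the partner of IRF9 in that complex, had a change of 0.03, and its second probe set one of 0.76. The limma adjusted p of these 4 genes lay between 0.714 and 0.97.

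The RNA sensors also had close group means. Ddx58, which encodes RIG-I, a sensor of short viral RNA, read 7.85, 7.62 and 8.78 in controls and 7.26, 8.55 and 7.89 in deficient mice. Ifih1, which encodes the sensor MDA5, read 10.24, 10.90 and 11.11 in controls and 10.68, 10.92 and 10.82 in deficient mice. Trim25, a ubiquitin ligase that activates RIG-I, read 12.41, 13.06 and 12.93 in controls and 13.14, 12.72 and 12.78 in deficient mice. For Ddx58 the low arrays were control 2 and deficient 1, while for Ifih1 and Trim25 control 1 was the lowest of all. Dhx58, encoding the sensor LGP2, ran from 5.56 in control 1 to 7.32 in control 3, with the deficient mice from 5.42 to 6.67. Changes in this group ran from -0.18 to 0.08 with limma adjusted p from 0.841 to 0.991. Probe sets of one gene disagreed here, with -0.98 for another set of Ddx58 and 0.73 for another of Trim25.

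The genes of the OAS and PKR group all had higher means in the deficient mice. The group has 5 genes of the oligoadenylate synthetase family, whose active members trigger RNase L to cut RNA, and Eif2ak2, which encodes the kinase PKR that stops translation. None passed the threshold: of 6 members 6 were higher by mean, 1 at an unadjusted p under 0.05, with a median change of 0.56 and limma adjusted p from 0.293 to 0.829. Of all genes 45.4% were higher by mean and 5.6% were higher at an unadjusted p under 0.05. Control 1 was the lowest of the 6 arrays for each gene of the group.

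Oasl1, which restrains IRF7 translation, read 10.06, 10.37 and 11.31 in controls and 12.06, 11.58 and 10.97 in deficient mice. Deficient mice 1 and 2 lay above every control, while deficient 3 lay below control 3. The means were 10.58 ± 0.65 and 11.54 ± 0.55 (SD, n = 3), a change of 0.96 ± 0.40 (SE) or 1.94-fold, and its adjusted p by limma was 0.293. With array weights the change was 0.41, with an adjusted p of 0.571 by limma. Oas1a, a synthetase, read 10.69, 11.06 and 12 in controls and 11.69, 11.89 and 11.61 in deficient mice. Its deficient values were narrow, at 11.73 ± 0.14 against 11.25 ± 0.68 in controls (SD, n = 3), and lay between controls 2 and 3. Oasl2, a synthetase-like protein, read 7.63, 7.67 and 9.5 in controls and 8.33, 9.54 and 8.89 in deficient mice. Control 3 and deficient 2 were nearly level for it, and its change was 0.65 ± 0.56 (SE). Oas2 read 4.74, 6.34 and 7.06 in controls and 6.88, 7.36 and 6.71 in deficient mice, so control 1 alone lay under the level of 5. Its change of 0.94 ± 0.56 (SE) was 0.28 without control 1 and 1.44 without control 3. Eif2ak2 read 7.26, 7.87 and 7.95 in controls and 7.85, 8.09 and 8.22 in deficient mice, with a change of 0.36, and its remaining 2 probe sets had changes of 0.64 and 0.70. Oas3 had a change of 0.24, which was -0.30 without control 1 and -0.28 with array weights. Without control 3 the changes of the 6 had a median of 1.06. In that fit 4 of them were higher at an unadjusted p under 0.05 (3.92% of all genes) and 0 passed the threshold. Without control 1 the median was 0.24, with 5 of 6 higher and 0 at an unadjusted p under 0.05, and without deficient 2 it was 0.37.

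**Figure D3:**
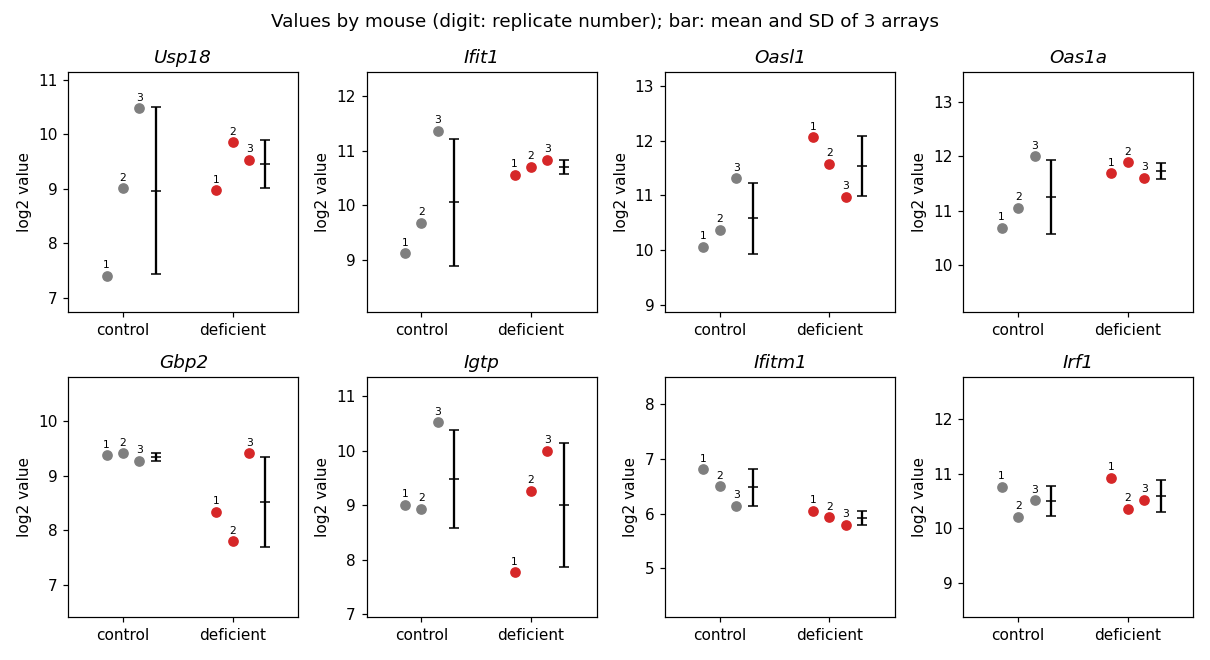
Log2 values of 8 genes on each array, with the replicate number above each point and the mean and SD of 3 arrays beside each group; every panel spans the same height. For Usp18 and Ifit1 the deficient mice lie inside the spread of the controls, the deficient points of Oasl1 reach above it, and Ifitm1 is the one gene whose groups do not overlap.

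The IFIT genes, whose proteins bind viral RNA ends or translation factors, all had their highest value in control 3. Ifit1 read 9.12, 9.68 and 11.36 in controls and 10.56, 10.70 and 10.83 in deficient mice. The means were 10.05 ± 1.17 and 10.70 ± 0.13 (SD, n = 3), and all deficient mice lay between controls 2 and 3. Ifit2 read 6.52, 6.38 and 8.57 in controls and 6.51, 6.66 and 7.12 in deficient mice. Ifit3 read 7.84, 7.91 and 9.31 in controls and 7.80, 8.59 and 8.23 in deficient mice. The mean changes of Ifit2 and Ifit3 were -0.40 ± 0.57 and -0.15 ± 0.43 (SE), and they turned to 0.31 and 0.33 without control 3. The limma adjusted p of the 3 genes lay between 0.556 and 0.877.

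Rsad2 and Cmpk2 lie next to each other in the genome, and their changes are given side by side. Rsad2 encodes viperin, which makes a chain-terminating nucleotide, and Cmpk2 a mitochondrial nucleotide kinase. Rsad2 read 9.52, 9.11 and 10.33 in controls and 10.91, 9.92 and 10.44 in deficient mice. Its change was 0.77 ± 0.38 (SE), the adjusted p by limma was 0.345, and its remaining probe sets had changes of 0.68 and 1.63. Cmpk2 read 9.36, 8.52 and 10.04 in controls and 8.53, 9.5 and 9.47 in deficient mice, a change of -0.14 ± 0.44 (SE) that was 0.23 without control 3, 0.18 without deficient 1 and 0.06 with the mean of probe sets. Deficient 1 was thus the highest array for Rsad2 and the lowest of its group for Cmpk2. The difference between these changes was not tested. Mx1 belongs to a family of GTPases that can block virus replication. It read 4.89, 4.52 and 5.6 in controls and 4.91, 5.79 and 5.76 in deficient mice, near the level of 5 on all arrays.

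Membrane restriction factors held the one gene whose groups did not overlap. Ifitm1, of a family that blocks fusion of viruses with cell membranes, read 6.81, 6.5 and 6.14 in controls and 6.05, 5.93 and 5.79 in deficient mice. Every deficient value was below every control value, as for 25.7% of all genes in one direction or the other. The change was -0.56 ± 0.21 (SE), or 1.48-fold lower, with an unadjusted p of 0.0323 and 0.258 after adjustment by limma. Control 3 was the lowest control for this gene. Ifitm2 read 7.56, 6.36 and 7.16 in controls and 6.81, 8.05 and 7.37 in deficient mice. Ifitm3 read 9.77, 7.71 and 9.18 in controls and 8.19, 9.53 and 8.93 in deficient mice. These 2 relatives shared an order of mice, low in control 2 and deficient 1 and high in control 1 and deficient 2. Their changes were 0.38 ± 0.41 and 0.00 ± 0.57 (SE). Control 2 and deficient 1 were also the arrays low for the Y-linked genes given at the end. The part of sex in these values was not tested. Bst2, or tetherin, which holds budding viruses at the cell surface, read 7.56, 6.71 and 8.73 in controls and 7.72, 8.36 and 7.88 in deficient mice, a change of 0.32 ± 0.49 (SE) that was 0.85 without control 3. Usp18, the protease that removes ISG15 from proteins and dampens receptor signalling, varied most among controls by SD, at 8.97 ± 1.53 (SD, n = 3). It read 7.41, 9.01 and 10.47 in controls and 8.97, 9.85 and 9.53 in deficient mice, so that all deficient mice lay inside the control range, and its change was 0.49 with a 95% interval of -1.20 to 2.18.

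The guanylate-binding proteins, large GTPases that coat intracellular pathogens and their vacuoles, all had lower means in the deficient mice. Of 4 tested members 4 were lower by mean and 0 passed, with a median change of -0.72 and limma adjusted p from 0.328 to 0.43. Deficient 2 was the lowest array for all 4. The T cell and myeloid markers were lower in the deficient mice as given above, and the part of those cells in the values was not tested. The median change of the 4 was -0.42 without control 3, -0.43 without deficient 2 and -1.10 without deficient 3.

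Gbp2 was the member with the most even controls. It read 9.37, 9.41 and 9.27 in controls 1, 2 and 3 and 8.34, 7.80 and 9.41 in deficient mice 1, 2 and 3. Deficient mice 1 and 2 lay below every control and deficient 3 lay level with the highest control. The change was -0.83 ± 0.39 (SE), a 1.78-fold difference. Without deficient 3 it was -1.28, and the adjusted p by limma was 0.0508 in place of 0.328. Without deficient 2 it was -0.47, with an adjusted p of 0.588 by limma. Its second probe set had a change of -0.73. Gbp7 read 7.51, 7.92 and 8.56 in controls and 7.20, 6.88 and 8.06 in deficient mice. Gbp3 read 6.90, 7.09 and 8.04 in controls and 6.88, 6.43 and 7.03 in deficient mice. Gbp6 read 6.27, 6.17 and 7.45 in controls and 5.55, 5.24 and 6.36 in deficient mice. In these 3 genes, unlike in Gbp2, control 3 was the highest array. Deficient 3 was the highest of its group in all 4, and the changes of Gbp7, Gbp3 and Gbp6 were -0.62, -0.56 and -0.91 on the log2 scale. The second probe sets of Gbp6 and Gbp7 had changes of -0.67 and -0.99. All 4 genes kept their sign under every alternative run, where their changes ran from -1.33 to -0.21.

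The immunity-related GTPases, smaller relatives that act on pathogen vacuoles and autophagy under interferon gamma, also had lower means in all 4 tested members, with 0 past the threshold, a median change of -0.52 and limma adjusted p from 0.328 to 0.886. Iigp1, an effector that loads onto vacuoles, read 7.69, 6.81 and 7.81 in controls and 6.83, 6.16 and 7.08 in deficient mice, a change of -0.75 ± 0.35 (SE). Its second probe set had a change of -1.19. Igtp read 9.01, 8.93 and 10.52 in controls and 7.77, 9.26 and 9.99 in deficient mice. Irgm1, a regulator that guards the cell's own membranes, read 8.14, 7.88 and 9.38 in controls and 7.65, 8.77 and 8.55 in deficient mice. Irgm2, a regulator of the same kind, read 8.08, 7.97 and 9.69 in controls and 7.18, 7.90 and 8.96 in deficient mice. For Igtp, Irgm1 and Irgm2 control 3 was highest and deficient 1 lowest of all arrays. Without control 3 the changes of Igtp and Irgm1 turned to 0.04 and 0.31, and the group then held 2 higher and 2 lower means, as it did without deficient 1.

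The OAS and PKR group and the GTPases stood apart within the deficient mice. Relative to control means, the 6 genes of the OAS and PKR group had medians of 0.30, 0.82 and 0.47 in deficient mice 1, 2 and 3. The 8 GTPases of both families had -0.91, -1.02 and 0.06. Their difference was 1.21, 1.84 and 0.41 in the deficient mice and -0.20, 0.41 and 0.12 in controls 1, 2 and 3. Deficient 3 and control 2 were level at this precision. These 2 sets were put side by side after their values were seen, and the difference between them was not tested. In control 3 both sets were high, at 0.88 and 0.76.

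**Figure D4:**
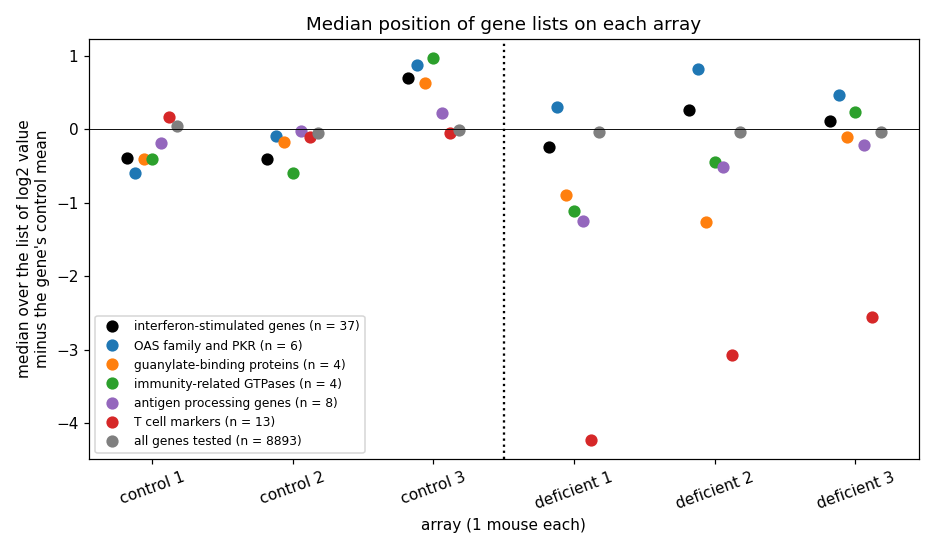
Median over each gene list of the log2 value minus the gene's control mean (vertical axis) on each array, with the number of tested genes in the legend. The OAS and PKR group lies above 0 and the guanylate-binding proteins below 0 in all 3 deficient mice, in control 3 the OAS and PKR group stands at 0.88, the guanylate-binding proteins at 0.63 and the immunity-related GTPases at 0.97, and T cell markers lie at -2.55 or lower in deficient mice.

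Among the other induced proteins, Ifi35 read 13.32, 13.95 and 13.87 in controls and 13.04, 13.42 and 13.69 in deficient mice, with its 3 probe sets at -0.33, -0.37 and -0.26. Xaf1, which binds an inhibitor of apoptosis, read 9.78, 10.12 and 10.96 in controls and 9.61, 10.55 and 10.40 in deficient mice. Parp14, an ADP-ribosyltransferase, read 9.71, 9.54 and 10.57 in controls and 9.90, 10.42 and 10.25 in deficient mice. Groups overlapped for all of these, and control 3 was the highest array for Xaf1 and Parp14. Ifi27l2a, a small mitochondrial protein, ran from 8.29 in control 1 to 10.74 in control 3 and from 7.87 to 8.95 in deficient mice.

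Upstream of these genes, the 3 ligands with values were low and no receptor or kinase passed the threshold. Ifnb1, Ifna4 and Ifng stayed between 2.27 and 3.09 on all arrays and were not tested. Ifne, Ifnk and the type III ligands Ifnl2 and Ifnl3 are not analysed here, since the annotation used assigned them no probe set. Of 39 genes in the lists for interferons, receptors, kinases, regulators, sensing and antigen processing, 28 were tested and 0 passed, with 7 lower and 0 higher at an unadjusted p under 0.05 (11.3% and 5.6% of all genes). The 6 receptor subunits had a median change of 0.14, with Ifnar2 at -0.49 (95% interval -1.16 to 0.18) and Ifnlr1, the epithelial type III receptor, at 0.16 (limma adjusted p = 0.408 and 0.661). Ifnlr1 read 7.33, 7.73 and 7.78 in controls and 7.79, 7.80 and 7.74 in deficient mice; controls 2 and 3 and all deficient mice lay close together and control 1 below them. The kinases had a median of -0.14, with Jak2 at -0.22 and Tyk2 at -0.14.

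Regulators and sensing genes mostly had lower means, and none passed. Of 4 negative regulators 4 were lower by mean, with Pias1, an inhibitor of interferon signalling, at -0.45 and Socs3, a feedback inhibitor of JAK kinases, at -0.81 (limma adjusted p = 0.272 and 0.337). Socs1 read 1.26 to 1.31 on all arrays and was not tested. Of 7 tested sensing genes 6 were lower by mean and 3 at an unadjusted p under 0.05, as 11.3% of all genes were. Irf3, the factor that starts interferon beta transcription, read 8.70, 8.85 and 8.63 in controls and 7.99, 8.28 and 8.30 in deficient mice, with every deficient value below every control (adjusted p = 0.198 by limma). Tlr3, a sensor of double-stranded RNA, read 8.67, 8.64 and 8.76 in controls and 8.28, 8.37 and 8.23 in deficient mice, also without overlap (limma adjusted p = 0.25). Groups did not overlap for 3 of the 7 tested sensing genes, against 25.7% of all genes in one direction or the other. Sting1 and Cgas, of the DNA sensing pathway, stayed below 5 on every array.

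The antigen processing genes that interferon gamma induces were lower by mean in all 8 tested members, with 0 past the threshold. Of these, 3 were lower at an unadjusted p under 0.05 (11.3% of all genes) and 5 had no overlap of groups (25.7% of all genes). Their median change was -0.71. Without deficient 1 the median was -0.36, with 7 of 8 lower, and without deficient 3 it was -0.95 and Nlrc5 passed, with an adjusted p of 0.0337 by limma. Tap2, a subunit of the peptide transporter, read 8.36, 8.99 and 9.11 in controls and 7.07, 7.66 and 8.25 in deficient mice, a change of -1.16 ± 0.34 (SE; adjusted p = 0.184 by limma). Nlrc5, the activator of MHC class I transcription, read 7.10, 6.80 and 6.78 in controls and 5.63, 5.58 and 6.56 in deficient mice, a change of -0.97 ± 0.29 (SE; adjusted p = 0.186 by limma). Deficient 1 was the lowest array for 7 of the 8, for 11 of the 13 tested T cell markers and for 26.4% of all genes. T cells express these genes too, and their part in the values was not tested.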

How the data were processed

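The authors deposited 1 log2 value for each probe set and array. The submitters' processing notes name GCRMA and Partek 6.5 without their roles. The log2 scale was inferred from values of 0.42 to 16.4 with array medians of 3.26 to 3.33. GCRMA gathers unexpressed probe sets near a floor, so differences there depend on its background model. The 64 control probe sets were left out of 45101. A platform annotation gave 1 symbol to 34945 probe sets, several to 932 and none to 9160, and 18193 genes were named. Among the members, probe sets used for Gbp2, Trim25 and Ifi35 are of designs that can match several transcripts. Some used for the pathway lists are too, among them those of Irf3, Tlr3 and Socs3, whose other probe sets are not given here.

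The comparison used lmFit and eBayes of limma 3.58.1 under R 4.3.3, with no covariate, on genes above 5 on at least 3 arrays, with Benjamini-Hochberg adjustment. Means carry the SD over 3 mice and changes their standard error. Tested on simulated arrays of 8893 genes for this comparison, it called 32% of 50 changes of 1 on the log2 scale, 73% of 100 changes of 2 and 96% of 50 changes of 3, with spreads shuffled among genes. Those spreads came from all genes, whose median standard error was 0.22 against 0.40 for the members. The rates therefore do not describe the members. The number of arrays limits the precision. Arrays of one group correlated at 0.953 to 0.98.

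Members and lists were chosen with earlier results of these data known. The naming rule took, with values on every array, members past the threshold, the 10 with the smallest p and up to 3 per role with the highest mean, and in the pathway lists up to 2 per list with the smallest p. Oas3, Dhx58, Stat2, Ifi27l2a and the other genes were named after their values were seen. In the lists, 2 older symbols were updated through synonyms in the gene table of GRCm38.p6. Alternatives changed the moderation, array weights, filter, normalization, probe sets and replicate block, and each array was left out in turn. The labels do not say whether replicate numbers pair mice. Deviations of same-numbered mice correlated at 0.048, -0.291 and 0.002, and those of differently numbered mice at -0.286 to 0.242. With 3 mice per group this cannot show whether mice were paired.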

Additional observations from a re-analysis of the deposited data

How the results depend on the processing

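The count of 0 called interferon-stimulated genes held under all alternatives run, with the lowest limma adjusted p of any member between 0.0508 and 0.422. The number of genes called overall was 293 with array weights, 117 with the mean of probe sets and 85 with no filter on low values, against 186, and 93 to 239 when 1 array was left out (93 without control 1, 101 without deficient 2 and 104 without control 3). With the replicate block, 141 genes and 0 members were called, and all 37 members kept their direction. The median change of the members ran from -0.30 (array weights) to 0.26 (without control 3). Of 37 members 17 kept their direction under every alternative and 20 did not. With array weights the changes of Bst2, Ifih1, Ifit1, Irf1, Oas3, Parp14, Stat2, Trim25 and Usp18 became -0.22, -0.09, -0.04, -0.01, -0.28, -0.02, -0.36, -0.05 and -0.17. Among those that kept their sign, Oasl1, Rsad2, Oas1a, Oas2 and Oasl2 became 0.41, 0.24, 0.08, 0.44 and 0.14. Cmpk2 became 0.06 with the mean of probe sets, where 36 members were tested. Dhx58 became 0.04 with median centring and 0.03 with quantile normalization, and Ifitm3 became 0.06 with median centring. When 1 array was left out, changes ran from -0.16 to 0.85 for Bst2, -0.53 to 0.23 for Cmpk2, -0.51 to 0.16 for Ddx58, -0.34 to 0.54 for Dhx58, -1.0 to 0.22 for Ifi27l2a, -0.20 to 0.24 for Ifih1, -0.78 to 0.31 for Ifit2, -0.40 to 0.33 for Ifit3 and -0.59 to 0.44 for Ifitm3. They ran from -0.97 to 0.14 for Igtp, -0.06 to 0.24 for Irf1, -0.33 to 0.26 for Irf7, -0.44 to 0.31 for Irgm1, -0.30 to 0.78 for Oas3, -0.20 to 0.44 for Stat2, -0.11 to 0.22 for Trim25, -0.29 to 1.24 for Usp18 and -0.35 to 0.24 for Xaf1. The cause of these moves was not tested.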

Other observations

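Some interferon-stimulated genes outside the list were picked after their values were seen, because control 3 was high for them. They are among the 122 genes in which control 3 exceeded the mean of controls 1 and 2 by over 1. Their high values in control 3 thus follow from the choice and are not separate evidence. Rtp4 read 10.08, 10.18 and 11.78 in controls and 10.48, 10.98 and 10.90 in deficient mice. Trim30a read 8.21, 8.0 and 10.13 in controls and 7.84, 8.78 and 8.89 in deficient mice. Herc6 read 6.95, 7.26 and 8.77 in controls and 7.42, 9.14 and 8.61 in deficient mice, so deficient 2 was its highest array. Zbp1, a sensor of Z-form nucleic acid in the sensing list, read 7.53, 6.77 and 9.33 in controls and 7.15, 8.72 and 9.14 in deficient mice, so that deficient 3 was nearly as high as control 3.

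Genes outside the interferon response also set mice apart, and their part in the family's values was not tested. Reg3g, an antimicrobial lectin that responds to bacteria, read 12.54, 7.79 and 14.52 in controls and 12.15, 13.48 and 14.09 in deficient mice. Slc10a2, the ileal bile acid transporter, read 8.46, 5.85 and 9.94 in controls and 9.16, 8.51 and 9.34 in deficient mice, and Fabp6, an ileal bile acid binding protein, read 15.52, 12.73 and 15.73 in controls and 15.69, 15.38 and 15.03 in deficient mice. Control 2 was the lowest array for all 3 genes. The Y-linked genes Uty and Eif2s3y were low in control 2 and deficient 1 alone, at 3.46 and 3.17 for Uty against 7.29 to 7.48 on the other arrays, and at 2.82 and 3.07 for Eif2s3y against 8.68 to 10.09. By these genes each group held mice of both sexes, and sex was not a covariate.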
